A study of Mus musculus with 12 samples.

Results

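The serine synthesis enzymes Phgdh, Psat1 and Psph and the folate one-carbon enzymes Shmt1, Shmt2, Mthfd1, Mthfd1l, Mthfd2, Aldh1l1 and Aldh1l2 were followed in mouse liver by name. Each is reported whatever its values, but the set was chosen with earlier results of these data known. All 10 were found among the 36047 genes quantified, and all 10 were among the 14670 genes that passed the low-count filter and were tested. Livers came from 12 adult male C57Bl/6J mice, 5 to 6 months of age, that had eaten 1 of 4 diets for 7 days. RF.Ctrl and RF.SAAR mice ate a regular-fat diet (18% of energy from fat), either control or restricted in sulfur amino acids. HF.Ctrl and HF.SAAR mice ate a high-fat diet, likewise control or restricted (60% of energy from fat). Each group held 3 mice, and the labels name no transgene or deletion.

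Serine is made from a glycolytic intermediate in a chain of 3 enzymes, namely Phgdh, which takes the committed step, Psat1, an aminotransferase, and Psph, a phosphatase. Serine then gives a carbon unit to folate, which is carried through parallel sets of enzymes in the cytosol and in mitochondria and is used for purines, thymidylate and the remethylation of homocysteine. Several of these genes are known targets of the transcription factor ATF4, which acts when amino acids are scarce, and the adult liver is known for high levels of the cytosolic enzymes.

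The 100 bases before the annotated start are shown for Psat1, Phgdh, Mthfd2 and Shmt2, the first 3 because they rose on the HF background and Shmt2 because it is the mitochondrial enzyme that differed little, and for Asns, an ATF4 target outside the set that holds the motif searched. The sequences are from RefSeq on GRCm38.p6, all from the minus strand, at chr19:15925060-15925159 for Psat1, chr3:98339970-98340069 for Phgdh, chr6:83317605-83317704 for Mthfd2, chr10:127522445-127522544 for Shmt2 and chr6:7693210-7693309 for Asns. Capitals mark the motif TGATGNAA, a form of the amino acid response element, which was searched on both strands.
Psat1: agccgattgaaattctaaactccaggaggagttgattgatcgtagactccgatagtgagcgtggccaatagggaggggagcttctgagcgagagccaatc
Phgdh: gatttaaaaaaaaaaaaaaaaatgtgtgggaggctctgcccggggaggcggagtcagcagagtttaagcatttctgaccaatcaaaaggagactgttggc
Mthfd2: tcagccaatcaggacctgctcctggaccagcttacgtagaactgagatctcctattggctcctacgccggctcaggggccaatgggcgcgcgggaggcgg
Shmt2: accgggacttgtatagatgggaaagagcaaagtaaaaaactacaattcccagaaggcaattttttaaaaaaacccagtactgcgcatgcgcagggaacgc
Asns: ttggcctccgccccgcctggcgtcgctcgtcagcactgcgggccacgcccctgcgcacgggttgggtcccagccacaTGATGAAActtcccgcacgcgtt

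In the 250 bases before the start, the motif occurred in 1134 of 32851 promoters in the table, or 3.45%. None of the 10 promoters listed for 9 of the enzymes held it, and Aldh1l2 had no entry. In Asns the first base of the motif lay 23 bases before the start. The absence of these letters says only that they are not in this window.

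Libraries held 16203094 to 21230092 estimated counts. Levels are given as CPM, which is counts scaled to library size and composition. Which of several genes is more abundant is judged as TPM, which also divides by transcript length. The tested ratios between enzymes were taken from log2 CPM within each mouse and compared between diets. The summed CPM of 6 hepatocyte markers was 71504 to 79111 in RF.SAAR mice, below the 79715 to 93338 of RF.Ctrl mice, while HF.SAAR (73914 to 85160) and HF.Ctrl (76005 to 88873) overlapped. The summed CPM of 5 cholangiocyte markers was lower in every SAAR mouse than in the Ctrl mice of the same fat level, at 36.03 to 42.89 against 42.92 to 61.97 on RF and 35.2 to 38.5 against 42.9 to 58.0 on HF. No marker of either list was called by edgeR in the SAAR comparisons, and their part in the results was not tested. The summed CPM of 29 pancreatic acinar markers ranged from 42.4 to 19167 and was over 1000 in 5 mice, namely RF.Ctrl 1, HF.Ctrl 1 and 2, and HF.SAAR 2 and 3. In bulk liver, fewer cells of a type and less RNA per cell cannot be told apart. By the study's methods the mice were housed singly, and p-values rest on the spread between mice within the groups.

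The cytosolic enzymes and Shmt2 were the abundant members. Over the 12 mice, the median level was 237 TPM for Aldh1l1, 91.4 TPM for Shmt2, 90.8 TPM for Shmt1 and 60.3 TPM for Mthfd1. Psph followed at a median of 8.19 TPM, then Mthfd2 at 3.86, Psat1 at 3.69, Phgdh at 1.18, Aldh1l2 at 0.595 and Mthfd1l at 0.252 TPM. Shmt2 and Shmt1 overlapped in TPM in all 4 groups, whereas Aldh1l1 lay above Shmt2 in every group. Shmt1 and Mthfd1 overlapped in HF.Ctrl, and Psph and Mthfd2 overlapped in HF.SAAR. Of the summed TPM of the 4 mitochondrial enzymes, Shmt2 made up 89.3% to 98.2% in the 12 mice.

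**Figure D1:**
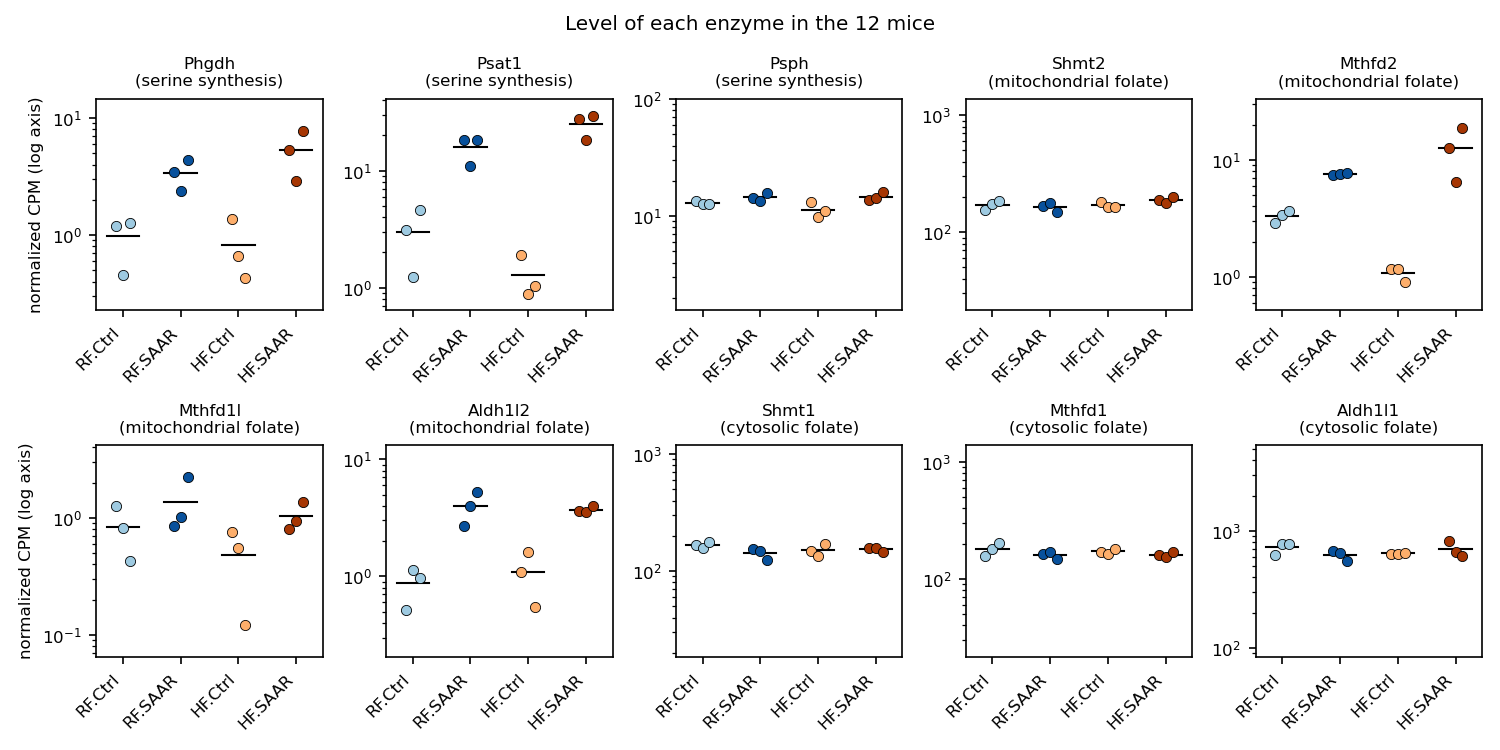
Normalized CPM (log axis) of each enzyme in the 12 mice by diet group; points are mice and the line is the group mean. Psat1 lies between 0.890 and 4.62 CPM under the control diets and between 10.9 and 29.5 CPM under restriction, while Shmt1, Shmt2, Mthfd1 and Aldh1l1 lie in narrow bands.

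A subset of the enzymes, in the serine synthesis and mitochondrial groups, was higher under sulfur amino acid restriction at both fat levels. By edgeR's quasi-likelihood test with Benjamini-Hochberg adjustment over all tested genes, 2 of 10 enzymes (Psat1 and Aldh1l2) rose in RF.SAAR vs. RF.Ctrl, against 0.600% of all tested genes. In HF.SAAR vs. HF.Ctrl, 4 of 10 (Psat1, Phgdh, Mthfd2 and Aldh1l2) rose by the same test, against 1.01% of all tested genes. None fell in either comparison. All 3 SAAR mice lay above all 3 Ctrl mice for 5 of 10 enzymes on the RF background, against 8.51% of genes, and for 6 of 10 on the HF background, against 8.88% of genes. DESeq2 called 4 of 10 higher on the RF background (2.13% of its genes), adding Phgdh and Mthfd2, and the same 4 on the HF background (2.47% of its genes). The median log2 fold change of the 10 enzymes was 0.43 on the RF and 0.75 on the HF background, and the median of all tested genes was near 0 in both. The enzymes were chosen with earlier results of these data known, so these shares and medians describe the set and do not test it.

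**Figure D2:**
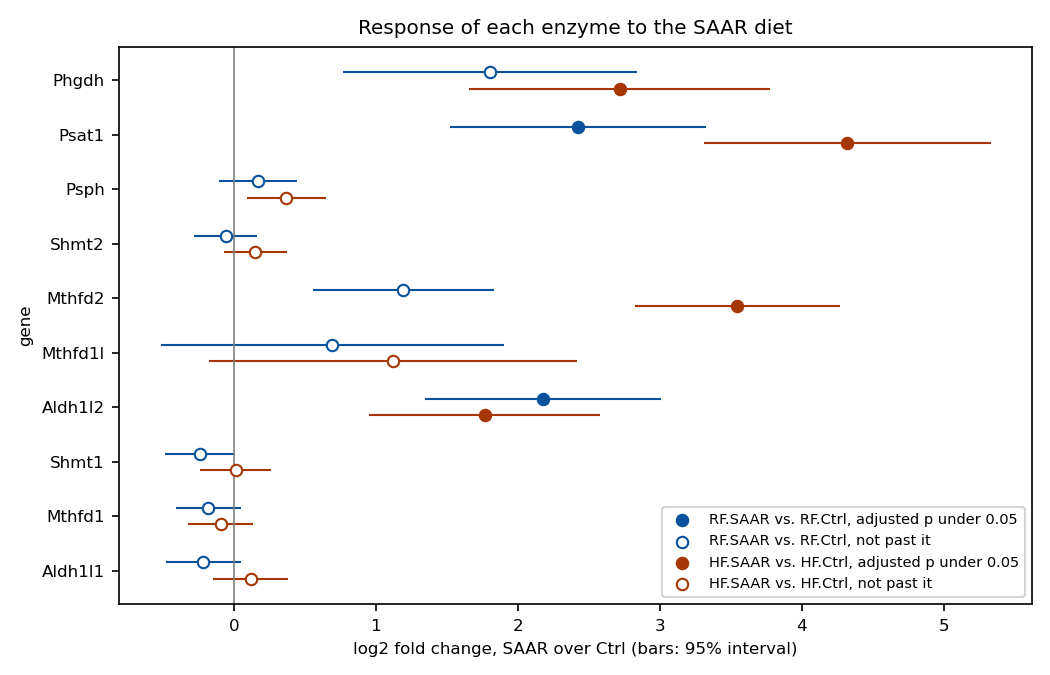
Log2 fold change of each enzyme, SAAR over Ctrl, with its 95% interval, on the RF (blue) and HF (brown) background; filled points passed an adjusted p of 0.05 by edgeR. Psat1 stands at 2.42 on RF and 4.32 on HF, and the intervals of Shmt2, Shmt1, Mthfd1 and Aldh1l1 span 0.

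Among the serine synthesis enzymes, Psat1, the aminotransferase of the middle step, responded most. Its level was 3.09, 1.23 and 4.62 CPM in the RF.Ctrl mice and 18.3, 10.9 and 18.2 CPM in the RF.SAAR mice. It was 1.91, 0.890 and 1.04 CPM in the HF.Ctrl mice and 27.8, 18.3 and 29.5 CPM in the HF.SAAR mice. Every SAAR mouse was above every Ctrl mouse of either fat level. The log2 fold change was 2.42 (SE 0.41, edgeR adjusted p = 0.0158) on the RF background and 4.32 (SE 0.46, edgeR adjusted p = 7.6e-04) on the HF background. These correspond to 5.37-fold and 19.9-fold higher levels.

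Phgdh, the enzyme of the committed step, was low in all mice, with 7.40 to 165 estimated counts per library. RF.Ctrl mice had 1.20, 0.460 and 1.28 CPM and RF.SAAR mice 3.46, 2.39 and 4.37 CPM. It was 1.37, 0.667 and 0.427 CPM in HF.Ctrl and 5.36, 2.89 and 7.77 CPM in HF.SAAR. The Ctrl and SAAR mice did not overlap at either fat level. The log2 fold change on the HF background was 2.72 (SE 0.49, edgeR adjusted p = 0.0132), and on the RF background it was 1.81 (SE 0.48, edgeR adjusted p = 0.0913), which did not pass.

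Psph, the phosphatase of the last step, moved little. On the RF background it was 12.9 ± 0.566 CPM (SD, n = 3) in Ctrl mice against 14.5 ± 1.03 CPM with restriction. On the HF background the values were 11.4 ± 1.77 and 14.6 ± 1.30 CPM. Both pairs of groups were separate, by small margins. Its log2 fold change was 0.17 (SE 0.13, edgeR adjusted p = 0.648) on RF and 0.37 (SE 0.13, edgeR adjusted p = 0.212) on HF, neither of which passed. The log2 ratio of Psat1 over Psph, a comparison added after the values were seen, was 3.10 higher in SAAR than in Ctrl mice, averaged over the fat levels (exact permutation p = 0.005, two-sided). Because the pair was chosen with these values in view, its p-value is not a test.

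Of the mitochondrial folate enzymes, Mthfd2, the dehydrogenase and cyclohydrolase, differed most on the HF background. RF.Ctrl mice had 2.92, 3.38 and 3.65 CPM and RF.SAAR mice 7.46, 7.58 and 7.70 CPM. It was 1.16, 1.17 and 0.914 CPM in HF.Ctrl and 12.8, 6.46 and 18.8 CPM in HF.SAAR. The RF groups were tight, whereas the HF.SAAR mice were spread and HF.SAAR 2 was below all RF.SAAR mice. The log2 fold change was 3.55 (SE 0.34, edgeR adjusted p = 9.8e-05) on the HF background and 1.19 (SE 0.30, edgeR adjusted p = 0.0692) on the RF background. With offsets for effective transcript length these were 2.44 and 0.98 (adjusted p = 5.3e-04 and 0.102, edgeR). On RF it passed under 6 of the 22 alternatives tried. Among them was leaving out HF.SAAR 2, a mouse outside that comparison (adjusted p = 0.0077, edgeR).

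Aldh1l2, the mitochondrial formyltetrahydrofolate dehydrogenase, rose at both fat levels. RF.Ctrl mice had 0.515, 1.13 and 0.972 CPM and RF.SAAR mice 2.72, 3.98 and 5.24 CPM. It was 1.09, 1.61 and 0.549 CPM in HF.Ctrl and 3.65, 3.57 and 3.96 CPM in HF.SAAR. No Ctrl mouse reached the lowest SAAR mouse. The log2 fold change was 2.18 (SE 0.39, edgeR adjusted p = 0.0138) on RF and 1.77 (SE 0.38, edgeR adjusted p = 0.0300) on HF. With length offsets the adjusted p was 0.107 and 0.169. Aldh1l2 overlaps D10Wsu102e on the opposite strand, a gene that reached 219.8 CPM, and whether counting used strand is not given in the sources used here.

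Mthfd1l and Shmt2 completed the mitochondrial group. Mthfd1l, the mitochondrial formate-tetrahydrofolate ligase, had 2 to 43 counts per library. Its log2 fold change was 0.69 (95% interval -0.51 to 1.90) on RF and 1.12 (95% interval -0.18 to 2.42) on HF, and the wide intervals come with low counts. Shmt2, the mitochondrial serine hydroxymethyltransferase, was 171 ± 14.7 CPM in RF.Ctrl, 164 ± 15.0 in RF.SAAR, 170.1 ± 8.41 in HF.Ctrl and 189 ± 11.5 in HF.SAAR (SD, n = 3). Its log2 fold change was -0.06 (95% interval -0.28 to 0.17) on RF and 0.15 (95% interval -0.07 to 0.37) on HF.

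None of the 3 cytosolic folate enzymes passed the test at either fat level by edgeR or DESeq2, and none had an unadjusted p under 0.05 by edgeR. Shmt1, the cytosolic serine hydroxymethyltransferase, was 168 ± 10.9 CPM in RF.Ctrl, 142 ± 17.0 CPM in RF.SAAR, 152 ± 18.3 in HF.Ctrl and 153 ± 6.97 in HF.SAAR (SD, n = 3). In CPM its RF.SAAR mice were all below its RF.Ctrl mice, with a log2 fold change of -0.24 (95% interval -0.49 to 0.01). In TPM these groups overlapped, at 83.5 to 118 in RF.SAAR and 79.5 to 94.2 in RF.Ctrl. The log2 fold change of Shmt1 on RF was -0.10 with length offsets and -0.07 with library size alone. Mthfd1, the trifunctional cytosolic enzyme, had log2 fold changes of -0.18 (95% interval -0.41 to 0.05) on RF and -0.09 (95% interval -0.32 to 0.14) on HF. Aldh1l1, the cytosolic formyltetrahydrofolate dehydrogenase, had -0.21 (95% interval -0.48 to 0.05) on RF and 0.12 (95% interval -0.14 to 0.38) on HF. Scaling by library size alone moved the median of all genes by 0.16 (log2) on RF and 0.17 on HF, and Mthfd1 on HF was then 0.07.

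The mitochondrial and cytosolic enzymes were set against each other within each mouse, as the log2 ratio of their CPM, and the diet labels were permuted within fat level in all 400 ways (exact, two-sided, smallest p 0.005). Mthfd2 over Mthfd1 was 2.37 higher in SAAR than in Ctrl mice on the log2 scale (exact p = 0.005, 0.01 after Benjamini-Hochberg adjustment over 4 ratios). Aldh1l2 over Aldh1l1 was 1.98 higher (exact p = 0.005, adjusted 0.01). Mthfd1l over Mthfd1 was 1.01 higher (exact p = 0.045, adjusted 0.06), and Shmt2 over Shmt1 was 0.16 higher (exact p = 0.085, adjusted 0.085), and neither passed after adjustment. Within a fat level, 3 mice against 3 cannot go below 0.10. The enzymes of these ratios were chosen with earlier results of these data known, so their p-values are not an independent test.

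In TPM, Mthfd2 stood at 3.24% to 4.79% of Mthfd1 in RF.Ctrl and at 8.59% to 9.93% in RF.SAAR. It stood at 2.15% to 2.61% in HF.Ctrl and at 9.61% to 18.6% in HF.SAAR. Aldh1l2 was under 1% of Aldh1l1 in every mouse, at 0.0414% to 0.188% under the control diets and 0.244% to 0.740% under restriction. Shmt2 and Shmt1 were near parity, with Shmt2 at 84.7% to 123% of Shmt1 in all 12 mice. Within the mitochondrial set, Mthfd2 over Shmt2, a ratio added after the values were seen, was 2.19 higher on the log2 CPM scale in SAAR mice (exact permutation p = 0.005, two-sided). That p-value is not a test either, as this pair too was chosen with the values in view.

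**Figure D3:**
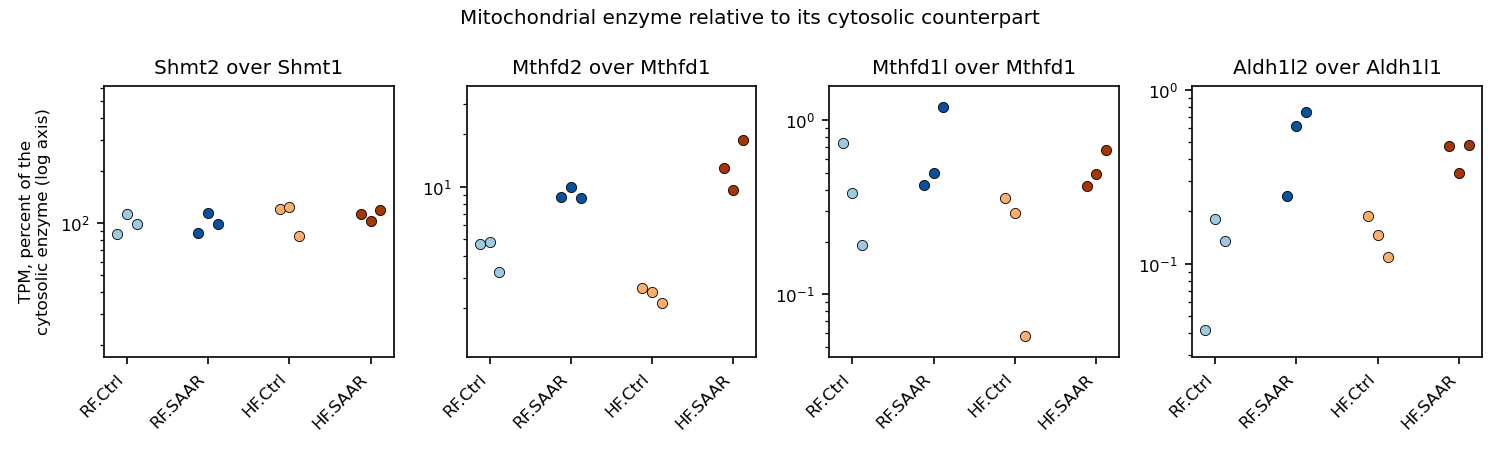
TPM of each mitochondrial enzyme as a percent of its cytosolic counterpart (log axis) in the 12 mice; points are mice. Mthfd2 over Mthfd1 and Aldh1l2 over Aldh1l1 are higher in every SAAR mouse than in any Ctrl mouse, and Shmt2 over Shmt1 lies between 84.7% and 123%.

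Dietary fat alone was compared next. No enzyme and no gene (0%) was called by edgeR in HF.Ctrl vs. RF.Ctrl. An unadjusted p under 0.05 was seen for 2 enzymes, against 3.59% of all genes, and DESeq2 called 1, Mthfd2, against 0.212% of its genes. Mthfd2 was lower in all HF.Ctrl than in all RF.Ctrl mice, by -1.61 on the log2 scale (SE 0.35, adjusted p = 0.354 by edgeR and 0.0152 by DESeq2). Without HF.SAAR 2, a mouse outside this comparison that enters the shared estimate of spread, the adjusted p by edgeR was 0.0425. With length offsets the log2 difference was -0.87 and did not pass (adjusted p = 0.9998, edgeR). Mthfd2 passed in this comparison under 2 of the 22 alternatives tried, namely DESeq2 and leaving out HF.SAAR 2. In HF.SAAR vs. RF.SAAR no enzyme was called by edgeR or DESeq2, against 0.0477% of all genes by edgeR, and by DESeq2 0.564% of its genes. Mthfd2 alone had an unadjusted p under 0.05, as did 5.59% of all genes, with a log2 fold change of 0.74 (SE 0.28).

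The difference between the responses on the HF and RF background was tested as an interaction. No enzyme was called by edgeR, against 0.00682% of all genes. An unadjusted p under 0.05 was seen for 2 enzymes, against 3.15% of all genes, and DESeq2 called 1, Mthfd2, against 0.106% of its genes. The response of Mthfd2 was 2.35 greater on HF on the log2 scale (SE 0.45, adjusted p = 0.336 by edgeR and 0.0032 by DESeq2). Without HF.SAAR 2, the HF.SAAR mouse with the least Mthfd2, it was 2.66 (adjusted p = 0.0084, edgeR). With length offsets it was 1.46 and did not pass (adjusted p = 0.9996, edgeR). This interaction passed under 2 of the 21 alternatives tried, namely DESeq2 and leaving out HF.SAAR 2. The response of Psat1 was 1.89 greater on HF (SE 0.61, unadjusted p = 0.0102), and its adjusted p did not pass by either tool. A response past the threshold on HF and not on RF, as for Phgdh, was therefore not shown to differ between the fat levels.

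Acinar marker signal and enzyme levels were set side by side, and the part of this signal in the results was not tested. With the signal as a covariate, log2 fold changes on HF were 4.32 (Psat1), 2.68 (Phgdh), 3.53 (Mthfd2) and 1.76 (Aldh1l2). Their adjusted p-values were 0.0023, 0.0153, 2.7e-04 and 0.0354 (edgeR). On RF, Psat1 (2.41) and Aldh1l2 (2.23) passed, at adjusted p = 0.0356 and 0.0163, and Phgdh and Mthfd2 did not (0.0880 and 0.0801). HF.SAAR 3 had the highest acinar sum (19167 CPM) and the highest Psat1, Phgdh and Mthfd2. HF.SAAR 1 had an acinar sum of 72.9 CPM with 27.8 CPM of Psat1 and 12.8 CPM of Mthfd2, and HF.Ctrl 2 had 7582 CPM with 0.890 CPM of Psat1. Without the 5 mice over 1000 acinar CPM, the log2 fold changes on the HF background were 4.72 for Psat1, 3.61 for Phgdh, 3.77 for Mthfd2 and 2.70 for Aldh1l2, from 1 mouse against 1 assumed to vary like the other groups, and only Mthfd2 passed (adjusted p = 0.00667, edgeR). On the RF background they were 2.46 for Psat1 and 1.91 for Aldh1l2, and 0 enzymes passed.

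**Figure D4:**
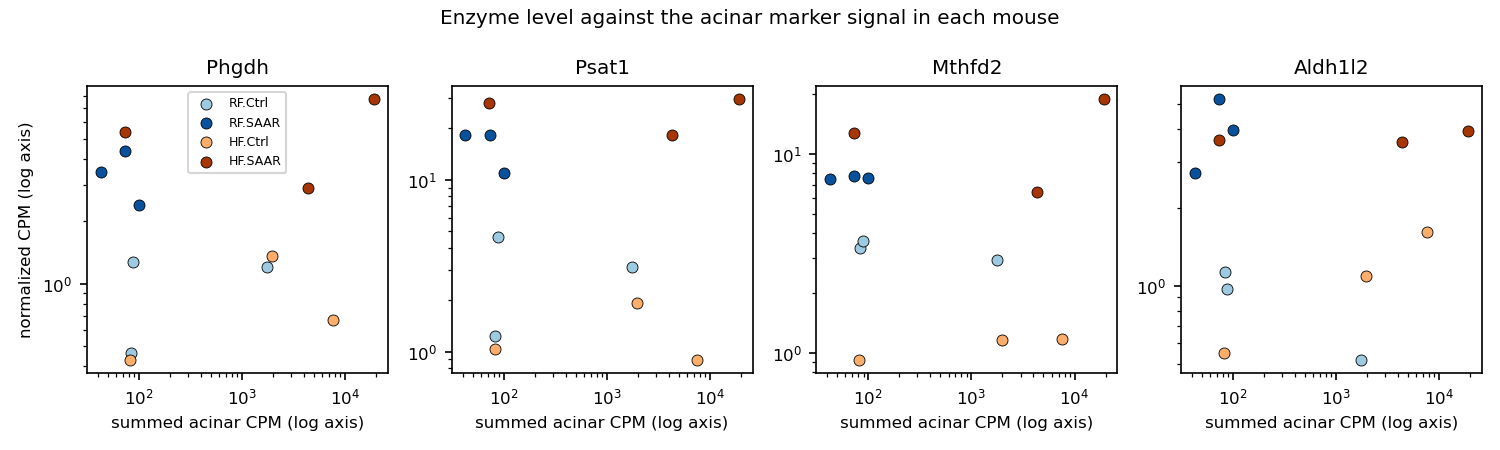
Normalized CPM of Phgdh, Psat1, Mthfd2 and Aldh1l2 against the summed CPM of 29 acinar markers (both log axes) in the 12 mice, coloured by group. HF.SAAR 1, at 72.9 acinar CPM, and HF.SAAR 3, at 19167, both have over 27 CPM of Psat1.

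Leaving out single mice moved calls on the RF background across the threshold while the fold changes stayed similar. Without RF.Ctrl 1 the log2 fold changes were 2.46 for Psat1 and 1.91 for Aldh1l2, and without RF.SAAR 3 they were 2.32 and 1.94. In both cases 0 enzymes were called by edgeR, with adjusted p from 0.0561 to 0.0668. Without RF.Ctrl 3 Aldh1l2 had an adjusted p of 0.0511, and without RF.SAAR 1 Psat1 had 0.0539 (edgeR). On the HF background Mthfd2 passed under all 22 alternatives tried and Psat1 under 21 of 22. Aldh1l2 lost its call there on leaving out HF.Ctrl 1, HF.Ctrl 3 or any 1 HF.SAAR mouse (adjusted p 0.0672 to 0.117, edgeR), and Phgdh on leaving out HF.Ctrl 2 or 3 (0.0532 and 0.0611).

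Over the 12 mice summed, each enzyme except Mthfd1l had most of its counts on 1 transcript. The most abundant transcript held 95.1% of the Psat1 counts, 96.1% for Mthfd2, 99.0% for Phgdh, 81.2% for Shmt2 and 79.5% for Aldh1l2. In single mice that share went down to 27.1% for Aldh1l2, 55.8% for Psat1 and 62.0% for Phgdh, and down to 82.4% for Mthfd2. The counts of Mthfd1l were split, with 53.7% and 46.0% on its 2 leading transcripts. Fitted as single transcripts, Psat1 was 2.42 higher on RF (adjusted p = 0.0770) and 4.55 higher on HF (adjusted p = 0.0042), and Mthfd2 was 3.73 higher on HF (adjusted p = 0.0025, edgeR). Mthfd2 on RF did not pass (1.22, adjusted p = 0.304, edgeR). Neither did Phgdh (1.91 on RF and 2.77 on HF, adjusted p = 0.392 and 0.132) or Aldh1l2 (2.87 and 1.72, adjusted p = 0.152 and 0.428).

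The genes whose log2 CPM most resembled that of Psat1 over the 12 mice were Phgdh (Pearson r = 0.96), Cyp39a1 (0.95), Hspa9 (0.95), Cnst (0.94) and Pir (0.94). Those most like Mthfd2 were Atf5 (0.96), Pip4p2 (0.95), Gpi1 (0.95), Hspa9 (0.94) and A230050P20Rik (0.94). Mthfd2 ranked 9 by its likeness to Psat1 (r = 0.93) and Psat1 ranked 9 by its likeness to Mthfd2. By contrast, Shmt1 had r = -0.22 and Mthfd1 r = -0.45 with Psat1. These are descriptions over mice that share diet groups.

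Other genes of folate metabolism moved less. Of 25 listed folate enzymes and carriers, 24 were tested and 0 were called by edgeR in either SAAR comparison, with 6 at an unadjusted p under 0.05 on RF (13.6% of all genes) and 3 on HF (12.4% of all genes), and a median log2 fold change of -0.02 on RF and 0.17 on HF. Of 17 genes of serine and glycine use and transport, 15 were tested and 0 were called, with 3 at an unadjusted p under 0.05 at each fat level and medians of -0.03 and 0.14. Of those not tested, Gcat was not found under that symbol among the genes quantified, and Tdh reached 0.068 CPM at most. Cbs, which joins serine to homocysteine, was 322 ± 25.2 CPM in HF.Ctrl and 431 ± 33.6 in HF.SAAR (adjusted p = 0.101, edgeR).

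Of 12 genes of the ATF4 axis, 11 were tested, and Ddit3 was not found under that symbol among the genes quantified. By edgeR 1 rose on RF, against 0.600% of all tested genes, and 3 rose on HF, against 1.01%. The median log2 fold changes of the list were 0.41 and 0.68, and the median of all tested genes was near 0 in both. Atf5, a transcription factor of the stress response, rose from 229 ± 23.9 to 422 ± 34.9 CPM on RF (adjusted p = 0.0051, edgeR) and from 168 ± 17.2 to 537 ± 93.3 CPM on HF (adjusted p = 2.0e-05, edgeR). Asns, asparagine synthetase, rose on HF by 3.30 (SE 0.61, edgeR adjusted p = 0.0324), and on RF its log2 fold change was 1.29 (adjusted p = 0.366). Fgf21, a hormone released by the liver, rose on HF by 4.41 (SE 0.77, edgeR adjusted p = 0.0241), and on RF its log2 fold change was 3.73 (adjusted p = 0.0533). Atf4 itself had log2 fold changes of 0.30 and 0.49 (adjusted p = 0.413 and 0.136, edgeR).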

How the data were processed

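The authors trimmed reads from total liver RNA, pseudoaligned them with kallisto to the Ensembl 94 mouse transcriptome and deposited, for each of 12 mice, estimated counts, TPM and effective length per transcript. Estimated counts were summed per gene with the GENCODE annotation on GRCm38, which matched 116816 of 118489 transcripts, and the unmatched 1673 held 1.08% of counts. Rounded counts were tested in edgeR 4.0.16 (R 4.3.3; filterByExpr, TMM, quasi-likelihood, all 4 groups in 1 fit, no covariate), with Benjamini-Hochberg adjustment over 14670 genes and a threshold of 0.05. DESeq2 1.42.0 was an alternative. The per-mouse log2 CPM used a prior count of 2. Scripts were tested on simulated data.

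The enzymes and lists were chosen with earlier results of these data known. Named genes were the 10 enzymes, listed genes and the 5 genes most like Psat1 and the 5 most like Mthfd2 by Pearson r. Cbs, Atf4 and the values of Asns and Fgf21 on RF were named after their values were seen. Alternatives were other scaling, filters, length offsets, single transcripts, the compared groups alone, acinar signal and leaving out each mouse. Pairing was not used. Depth limits precision for enzymes with few counts. Of the marker lists, those for cholangiocytes, Kupffer, endothelial, stellate and dividing cells (beside hepatocyte and acinar markers, with 0 called) had 0 genes higher and 1 lower (a stellate marker, on RF) in the SAAR comparisons.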

Additional observations from a re-analysis of the deposited data

How the results depend on the processing

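No paired analysis was possible because the labels give no replicate numbers, and the numbers used here only name mice in accession order. Of 1073 alternative fold changes of the enzymes, 994 kept direction and side of the threshold, 26 lost a call, 12 gained one and 41 changed sign, the last on values that were not called. On RF the enzymes called, 2 in the fit reported, were 4 with library size alone or DESeq2, 1 with at least 10 counts in every mouse or with length offsets, 0 without acinar mice or as single transcripts, and 0 to 3 leaving out 1 mouse. On HF, 4 became 2 with at least 10 counts or as single transcripts, 1 without acinar mice, and 2 to 4 leaving out 1 mouse. The stricter filter removed Phgdh, Aldh1l2 and Mthfd1l from the test. With no low-count filter 3 enzymes were called on RF. With the compared groups alone 2 were called on RF, where Psat1 lost its call (adjusted p = 0.0835) and Mthfd2 gained one (0.0193, edgeR). On HF, Aldh1l2 lost its call with length offsets and with the compared groups alone (adjusted p = 0.169 and 0.0585, edgeR). For HF.Ctrl vs. RF.Ctrl and for the interaction, 0 became 1 with DESeq2 and 0 to 1 leaving out 1 mouse. The causes were not tested.

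Without acinar mice the ratios were 2.59 (Mthfd2 over Mthfd1), 2.13 (Aldh1l2 over Aldh1l1), 2.34 (Mthfd2 over Shmt2) and 3.37 (Psat1 over Psph). The few relabelings left cannot give an exact permutation p below 0.05, so no ratio could pass in this setting. Mthfd1l over Mthfd1 was 0.64 in TPM, 1.09 by transcript, 1.69 without acinar mice and 0.71 to 1.22 leaving out 1 mouse, and Shmt2 over Shmt1 was 0.29 by transcript (exact permutation p = 0.01) and 0.02 in TPM (p = 0.855). The other ratios in TPM were 1.72 (Mthfd2 over Mthfd1), 1.52 (Aldh1l2 over Aldh1l1), 1.58 (Mthfd2 over Shmt2) and 2.93 (Psat1 over Psph), each at p = 0.005 (exact permutation). For Mthfd2 over Shmt2 and Psat1 over Psph, added after the values were seen, none of these p-values is a test.

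Signs that changed were small except for Aldh1l2 without acinar mice, at -0.92 for HF.Ctrl vs. RF.Ctrl and 0.78 for the interaction. With library size alone, Shmt2 on RF was 0.11, Mthfd1 on HF 0.073, and Psph and Mthfd1 between SAAR groups -0.044 and -0.033. With length offsets the latter were -0.0036 and -0.0093. As single transcripts, Shmt2 on RF was 0.025, Shmt1 on HF -0.030 and Mthfd1l in the interaction -0.063. Without acinar mice, Shmt1 was -0.14 on HF and 0.049 for HF.Ctrl vs. RF.Ctrl, and Psph between SAAR groups was -0.10. With acinar signal as a covariate, Shmt2 for HF.Ctrl vs. RF.Ctrl was 0.0026 and Psph between SAAR groups -0.055, and with those groups alone Psph was -0.00057. Leaving out 1 mouse gave -0.12 to 0.022 for Shmt2 on RF, -0.060 to 0.11 for Shmt1 and -0.0095 to 0.20 for Aldh1l1 on HF. For HF.Ctrl vs. RF.Ctrl it gave -0.81 to 0.046 for Phgdh, -0.071 to 0.050 for Shmt2, -0.16 to 0.029 for Mthfd1 and -0.10 to 0.63 for Aldh1l2. Between SAAR groups it gave -0.062 to 0.063 for Psph, -0.038 to 0.064 for Mthfd1, -0.64 to 0.15 for Mthfd1l and -0.31 to 0.15 for Aldh1l2. In the interaction it gave -0.0084 to 0.18 for Mthfd1, -0.027 to 0.96 for Mthfd1l and -0.73 to 0.0053 for Aldh1l2.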
